A study of Caenorhabditis elegans with 2 samples.

Results

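The promoter peak of atx-2, the gene of the worm ataxin-2 protein, was described in a map of the tagged transcription factor MED-1 in C. elegans embryos. The gene was chosen by its signal, as the second strongest nuclear peak of the series, so its signal and rank are given as a description with no test. It is 1 gene of 19985 protein-coding genes in the annotation, and its peak is 1 of 460 in the authors' optimal set. Chromatin of whole hermaphrodite embryos at the middle of embryogenesis was precipitated with an antibody to GFP and sequenced (ChIP-seq), in 1 group of 2 biological replicates. Both replicates were of the strain OP391, which carries the mutation unc-119(ed3) on chromosome III and the transgene wgIs391, in which med-1 bears TY1, EGFP and FLAG at its C-terminus beside unc-119(+). There is no untagged or second strain among the lists, the age of the embryos is given as unknown, and the labels list the replicates as separate biosamples of that 1 strain. Since the embryos were whole, fewer cells with the factor at the site and less factor per cell cannot be told apart. Depth is unknown because the peak lists give no read counts.

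Ataxin-2 is a conserved RNA-binding protein with Sm-like domains that works with poly(A)-binding protein in the control of translation and mRNA stability. In C. elegans, ATX-2 acts in translational control in the germline with GLD-1 and MEX-3, and in cell division of the early embryo. MED-1 is an atypical GATA factor that specifies the mesendoderm and recognises the MED site, RAGTATAC, which differs from the canonical GATA site.

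The sequence of the atx-2 peak is printed first, because the element that the peak shares with other promoter peaks lies in it. The coordinates are those of build ce11, the same assembly as WBcel235, and the letters come from the RefSeq copy of that assembly. The atx-2 line is the whole peak, and the others are 101 bp around the summit of the strongest peak and 3 further strong promoter peaks. All read 5′ to 3′ on the strand of the gene. Capitals mark the parts of an element of GCGG, 5 bases and TTGC. At nmad-1 it lies on the other strand, so that it reads there as GCAA, 5 bases and CCGC.
atx-2, chrIII:10461200-10461412, plus strand: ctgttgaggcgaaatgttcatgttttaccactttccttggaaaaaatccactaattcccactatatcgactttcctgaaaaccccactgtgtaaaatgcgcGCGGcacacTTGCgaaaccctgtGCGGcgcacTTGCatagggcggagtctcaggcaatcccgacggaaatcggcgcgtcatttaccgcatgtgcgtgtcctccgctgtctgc
idhg-1, chrIII:4568698-4568798, plus strand: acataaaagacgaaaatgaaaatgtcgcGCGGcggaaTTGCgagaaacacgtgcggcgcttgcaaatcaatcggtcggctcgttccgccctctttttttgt
C16C10.4, chrIII:4171130-4171230, plus strand: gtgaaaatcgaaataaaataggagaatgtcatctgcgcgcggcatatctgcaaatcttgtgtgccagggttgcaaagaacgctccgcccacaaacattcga
ears-2, chrIV:390452-390552, minus strand: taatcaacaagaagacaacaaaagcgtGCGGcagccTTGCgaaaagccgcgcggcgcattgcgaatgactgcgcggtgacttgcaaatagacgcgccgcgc
nmad-1, chrIII:5555081-5555181, minus strand: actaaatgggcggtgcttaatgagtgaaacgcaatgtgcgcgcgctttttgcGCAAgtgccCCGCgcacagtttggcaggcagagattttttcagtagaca

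The atx-2 peak lay at the 5′ end of the gene, and its signal was high in both replicates. The gene (WBGene00000231) runs on the plus strand of chromosome III from 10461389 to 10468051. In the optimal set the peak reached from 10461200 to 10461412, with its summit at 10461325, 64 bp upstream of the first annotated start. The authors' signal was 415 in the optimal and pooled lists, 217 in replicate 1 and 198 in replicate 2. The replicate mean was 208 ± 13.4 (SD, n = 2). The replicate lists were made separately, so this SD also holds any difference in scale between them. The peak ranked 3 among all optimal peaks and 2 among the nuclear ones. Among nuclear peaks it ranked 2 in replicate 1 and 3 in replicate 2. The q-value column, used here as a score, was 2.45 in the pooled list, a value shared by 125 nuclear optimal peaks.

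The first annotated start is that of the transcript D2045.1d.1, at 10461389, whose first coding bases fill 24 bp at the right end of the peak. This transcript has an annotated 5′ UTR of 0 bp, so its start is the start of its coding sequence. The distance of 64 bp is thus to an annotated start, which may not be where transcription begins. D2045.1a.1 begins at 10461628, 303 bp downstream of the summit, and has an annotated 5′ UTR of 85 bp. D2045.1c.1 begins 388 bp downstream of the summit and D2045.1b.1, the shortest form, 3131 bp downstream. The summit thus lay upstream of every annotated atx-2 start, and nearest to the first of them.

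**Figure D1:**
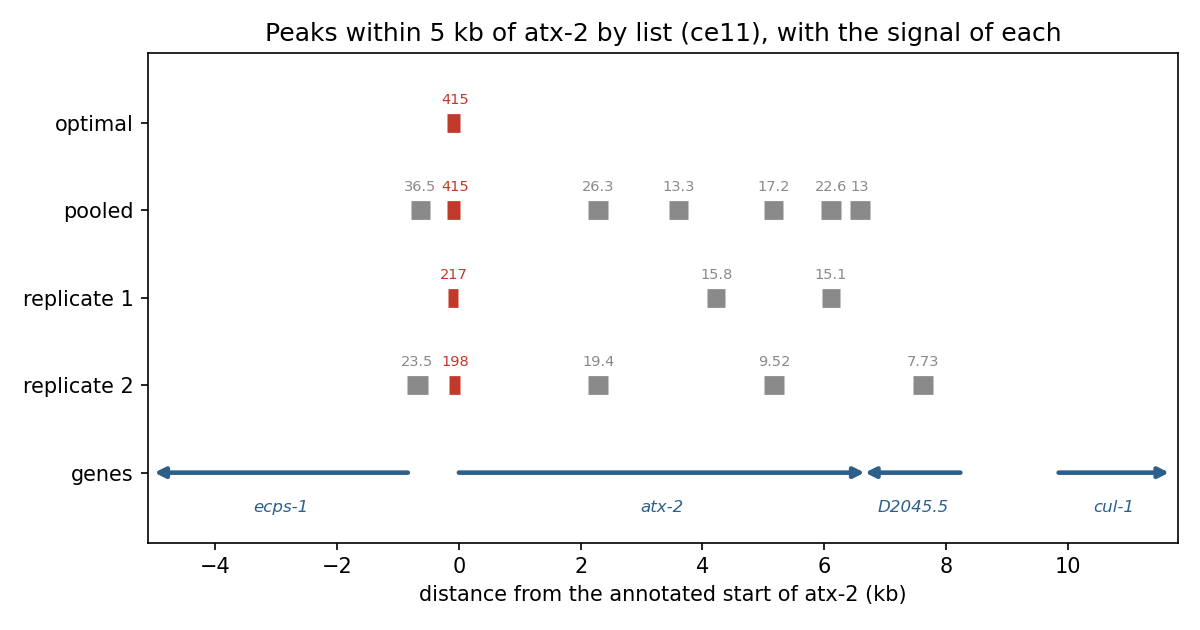
Peaks whose summit lay within 5 kb of atx-2 in each list, by distance in kb from the first annotated start of the gene. Boxes span the peaks, numbers give the authors' signal, red marks the promoter peak, and arrows show genes and their direction, with ecps-1 and cul-1 drawn only up to the edge of the window. The promoter peak is present in all 4 lists, and it is the peak with the highest signal in each.

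No other optimal peak lay within 5 kb of the gene. The pooled list, which includes background, held 7 peaks there, the promoter peak among them. The next strongest of these, from 10460597 to 10460920, had a signal of 36.5 and ranked 513 among nuclear peaks. Its summit was 208 bp upstream of the start of the divergent gene ecps-1, which encodes a proteasome-associated protein. Replicate 2 had a peak there with a signal of 23.5, and replicate 1 had none. The replicate 1 list is shorter, with 2401 peaks and a lowest signal of 13.2, against 30000 and 6.66 in replicate 2. A peak missing from replicate 1 may be weak or absent there, so the size of the difference between the replicates is not known. The remaining 5 pooled peaks lay within the gene, with signals of 26.3 in an intron, 17.2 and 13.3 in coding exons, and 22.6 and 13.0 in the UTR. The signal of the promoter peak was thus 11.4 times that of the next peak within 5 kb. The same ratio had a median of 3.14 over 170 other promoter peaks with such a neighbour, and 16 of them had a higher one. At the 5 peaks most like atx-2 in signal, named below, it was mostly higher. It was 24.2 at idhg-1, 13.7 at K05C4.2, 21.9 at C16C10.4 and 19.1 at spe-48, but 9.35 at ears-2.

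Promoter peaks were taken as nuclear optimal peaks with the summit within 500 bp of the transcription start of a protein-coding gene (TSS) and over 200 bp from any tRNA, rRNA, snRNA or snoRNA gene. There were 174 of them, atx-2 included, and atx-2 was compared with the other 173. The nearest small RNA gene to the atx-2 summit was 28849 bp away. The start of ecps-1 lay 774 bp from the summit on the opposite strand, with 837 bp between the genes. Such a divergent start within 1 kb was present at 85 of the 173 others (49.1%). Downstream lie D2045.5, and then cul-1, the cullin of SCF ubiquitin ligases, neither with an optimal peak. The nearest optimal summits were 599658 bp to the left, with a signal of 81.3, and 163524 bp to the right, with 69.7. Chromosome III held 45 of the 174 promoter peaks (25.9%) and 5 of the 10 strongest, beside 16.6% of all 440 nuclear optimal peaks and 13.2% of nuclear protein-coding genes. These shares were not tested.

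The atx-2 signal was 6.49 times the median of 64.0 over the other promoter peaks, whose quartiles were 48.5 and 105. The ratio was 6.87 in replicate 1, over the 163 others with a peak there, and 5.57 in replicate 2, over all 173. The 2 ratios thus rest on different sets of peaks. One peak lay above it, that of idhg-1, a subunit of isocitrate dehydrogenase, with a signal of 521, which is 1.25 times that of atx-2. K05C4.2 followed with 399, C16C10.4 with 341 and ears-2, a glutamyl-tRNA synthetase, with 303. The order of atx-2 and K05C4.2 differed between the replicates: atx-2 was higher in replicate 1, with 217 against 182, and K05C4.2 in replicate 2, with 215 against 198. The pooled signals of that pair were 1.04-fold apart, so their order did not exceed the spread between replicates. The order of idhg-1 and atx-2 was the same in both replicates, with 243 and 272 at idhg-1.

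The peaks most like atx-2, by the Euclidean distance of log2 signal over the pooled list and the 2 replicates, were K05C4.2 (0.29), C16C10.4 (0.50), idhg-1 (0.58), ears-2 (0.80) and spe-48 (0.88). These are also neighbours of atx-2 in the order of signal, which the distance uses.

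**Figure D2:**
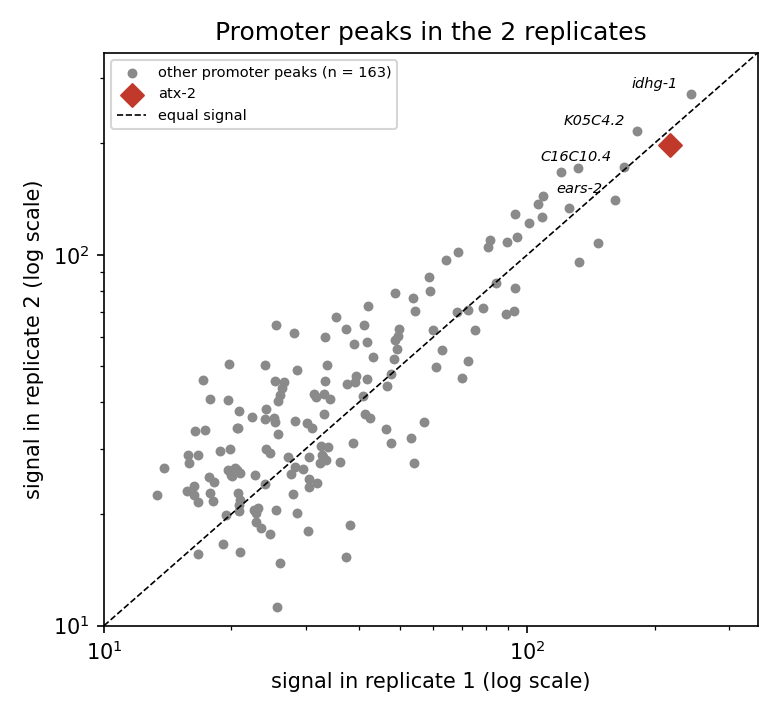
Signal of the promoter peaks in replicate 1 (x) and replicate 2 (y), both on log scales, for atx-2 (red) and 163 others found in both replicates (grey), with the line of equal signal dashed. The atx-2 point, at 217 and 198, lies just below the line and near the upper end.

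The replicates placed the atx-2 peak at nearly the same position. The peak reached from 10461207 to 10461382 in replicate 1 and from 10461228 to 10461401 in replicate 2. Their summits, at 10461309 and 10461323, were 14 bp apart. At the 163 other promoter peaks found in both replicates this distance had a median of 17 bp (quartiles 5.5 and 38), with 90 above and 69 below 14 bp. It was smaller at the 5 peaks most like atx-2 in signal: 3 bp at K05C4.2, 0 at C16C10.4, 11 at idhg-1, 3 at ears-2 and 3 at spe-48. The log2 ratio of replicate 1 over replicate 2 was 0.13 at atx-2, against a median of -0.26 at the others, 45 of which lay above atx-2. The lists were made separately, so the place of atx-2 among the others is the part of this ratio that can be read. The replicate signals of atx-2 added up to 415.4, equal to the pooled signal within 5%, as they did at 129 of the 163 others. In the ce10 lists the peak ran from 10461103 to 10461315 on III in that build, with the same signal, nuclear rank and summit distance. It was matched there by its signal, so the equal signal and the rank that follows from it are no separate agreement between builds.

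The atx-2 peak was narrow. It was 213 bp wide in the pooled list, 176 bp in replicate 1 and 174 bp in replicate 2. Of the 174 promoter peaks, 158 had 1 common width of 324 bp, and 16 were narrower, from 85 to 238 bp. The narrow peaks had signals from 194 to 521, and 15 of them were above 200. Those of the common width had signals from 39.1 to 208, and 1 was above 200. Width and signal come from the same peak calls, so the width is no second measure of the signal.

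**Figure D3:**
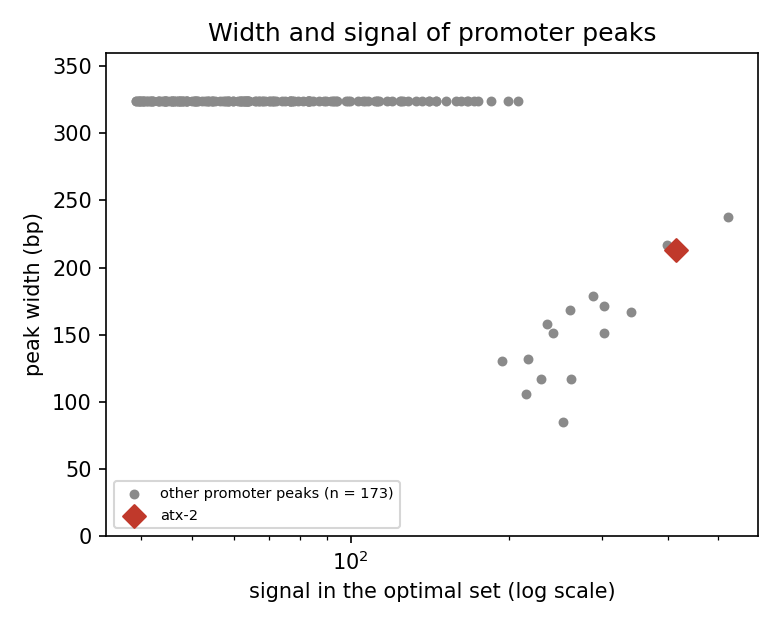
Width in bp of the 174 promoter peaks by their signal on a log scale, with atx-2 in red. Peaks of the common width of 324 bp form the upper row, and atx-2, at 213 bp, stands with the 16 narrower peaks at the right.

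The sequence at the summit was rich in G and C. In the 201 bp around the summit, GC content was 54.2% at atx-2, against a median of 39.8% at the other promoter peaks, of which 3 were higher. The CpG dinucleotide occurred 18 times, against a median of 12. Windows of the same length, centred 64 bp upstream of the start of each of 19973 nuclear protein-coding genes, had medians of 33.8% and 6 CpG. Of these, 0.546% reached the GC content of atx-2 and 0.481% its CpG count. Every one of the 178 words of 36 bases within the peak occurred once in the genome, which was also the case at 163 of the 173 other promoter peaks.

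The MED site did not occur in the 201 bp window of atx-2. It was found in 0.578% of the other promoter peaks and 0.756% of gene starts. Its core GTATAC, the GATA site HGATAR and the longer GATA form TGATAA were also not among the letters of this window. HGATAR was present in 26.0% of the other promoter peaks and 50.5% of gene starts. Of 15 motifs searched on both strands, 5 had a match at atx-2. Within the peak itself 4 of them matched. The GA repeat lay 92 bp downstream of the summit, past the end of the peak. The Sp1 site CCRCCC matched once, 15 bp from the summit, and was held by 33.5% of the other promoter peaks and 9.36% of gene starts. The E-box CANNTG matched 3 times, and 58.4% of the other promoter peaks and 55.2% of gene starts held it. The E-box matches that begin 18 bp upstream and 5 bp downstream of the summit lie within the element copies marked in the printed sequence. They are thus not separate from the element. The CREB site TGACG, the GA repeat GAGAGA and the splice acceptor TTTCAG matched once each. They were held by 35.3%, 18.5% and 27.2% of the other promoter peaks and by 20.8%, 15.9% and 42.1% of gene starts. These gene-start windows were centred 64 bp upstream. Centred 159 bp upstream, the median distance of the other summits, they held the splice acceptor at 28.5% of gene starts. Its lower share at promoter peaks thus depended on the window. The other shares there were 20.2% for CREB, 15.3% for the GA repeat, 8.81% for Sp1 and 53.0% for the E-box. At atx-2 the splice acceptor letters lay on the strand opposite the gene. The other motifs, with no match at atx-2, were those for E2F (TTSSCGC), forkhead (TRTTKAY), T-box (GTGTGA) and SKN-1 (RTCATC), the T tract TTTTTTT and the TATA box TATAAA. A match is a run of letters and was not tested as a site of binding.

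The element of GCGG, 5 bases and TTGC marked in the printed sequences was noticed after these motifs had been searched. The search began with the 184 distinct words of 6 bases in the atx-2 window, of which 89 also occurred at 20 or more of the other promoter peaks. The sequences of the strongest peaks were then read, and 9 spacer settings and 5 single words were tried before the 5-base spacer of the atx-2 copies was kept. Among the spacers and words tried it gave the highest ratio of the share at promoter peaks to that at gene starts, but not the largest difference: spacers of 3 to 5 bases were held by 37.0% and 1.24%, and GCGG alone by 80.9% and 38.8%. The element was thus chosen on these same peaks, the strongest above all, and its higher share at strong promoter peaks cannot be told apart from that choice. The counts that follow describe these peaks and carry no test. Words used in the search overlap the element: CGCAC, which is the spacer of the second atx-2 copy, was present in 71.1% of the other promoter peaks and 11.7% of gene starts.

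At atx-2 the element occurred 2 times, both on the strand of the gene, from 10461301 to 10461313 and from 10461324 to 10461336. Their centres lay 18 bp upstream and 5 bp downstream of the summit. It was held by 50 of the 173 other promoter peaks (28.9%) and by 78 of 19973 gene starts (0.391%). None of the 173 held it in windows of the same length 300 to 500 bp to either side of the summit. Over the 52 copies in the other promoter peaks, the median distance from the centre of the element to the summit was 15 bp (quartiles 6.75 and 23). A second copy was present in 2 of the others, at spe-48, with a signal of 303, and at dvc-1, with 185. Of the 10 strongest promoter peaks 9 held the element, the exception being C16C10.4, and so did 13 of the 16 narrow peaks. Both counts include atx-2. Since the strongest peaks were read to find the element, these counts are no independent support for it.

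The share differed by spacer. The 5-base spacer was chosen on these same peaks, so its higher share here is no independent support for it. With spacers of 0 to 4 bases, 3, 7, 16, 10 and 13 of the 173 others held the 4-base parts in this order, with 5 bases 50 did, and with 6 bases none did. With 7 to 10 bases the counts were 3, 5, 7 and 5. At gene starts no spacer from 0 to 10 bases was held by more than 0.556% of windows. The ears-2 sequence shows the same parts again at spacers of 4 bases, which are not in capitals.

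**Figure D4:**
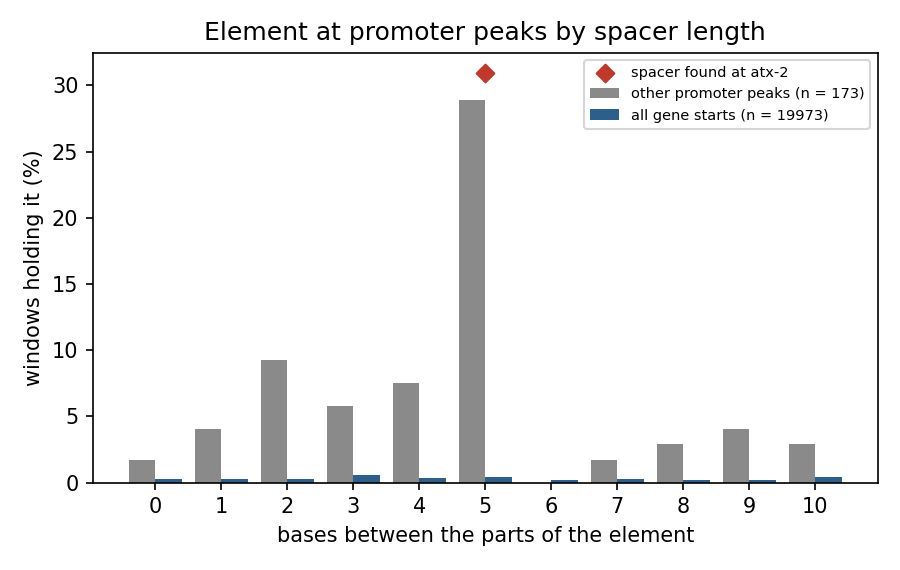
Share of windows of 201 bp that hold GCGG and TTGC in this order, by the number of bases between them, for 173 other promoter peaks (grey) and 19973 gene starts (blue). The red mark shows the spacer of both atx-2 copies, 5 bases, which is the tallest grey bar at 28.9%. This spacer was chosen on the same peaks.

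Promoter peaks that held the element had a higher median signal. Leaving out atx-2, the median was 107 with the element (n = 50) and 58.8 without it (n = 123). In replicate 1 the medians were 49.4 (n = 50) and 26.1 (n = 113), and in replicate 2 they were 62.4 and 31.5. Since strong peaks were read to find the element, these medians and the counts by rank that follow are no independent support for a link with signal. The median GC content was 40.8% with the element and 39.3% without it. In the pooled list, the element was held by 25 of 42 promoter peaks that ranked 1 to 100, by 14 of 37 at ranks 101 to 200, and by 11 of 94 at ranks 201 to 460. Beyond the optimal set the counts were 2 of 225 at ranks 461 to 1000, 13 of 1281 at 1001 to 5000 and 34 of 6550 at 5001 to 30000. The median GC content of these groups lay between 35.3% and 40.0%.

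**Figure D5:**
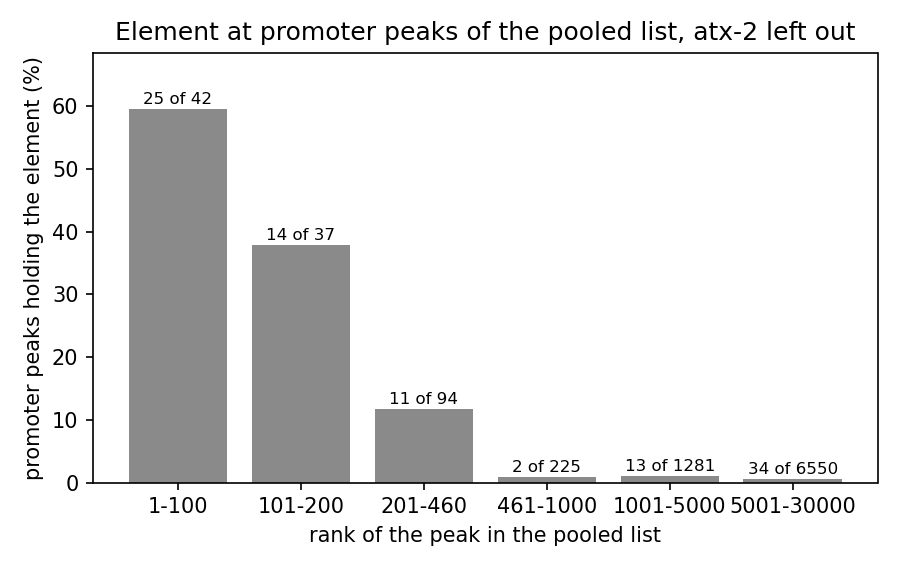
Share of promoter peaks in the pooled list that hold the element within 100 bp of the summit, in 6 groups by rank, with atx-2 left out and the counts above the bars. The share is 59.5% at ranks 1 to 100 and under 2% in each group past rank 460.

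Outside the 174 promoter peaks, the element was held by 5 of 266 nuclear optimal peaks (1.88%). Of these 266, 41 lay within 500 bp of a TSS beside a small RNA gene, and 1 of them held it. The other 225 lay farther from any TSS, and 4 of them held it (1.78%). The genome has 1809 copies, of which 60 lay inside an optimal peak (3.32%). Of 449 copies within 500 bp of a TSS 55 did (12.2%), and of the other 1360 copies 5 did (0.368%). Leaving out atx-2, 77 gene starts held the element in the window centred 64 bp upstream, and 20 of them had an optimal peak assigned. Of 4 with 2 or more copies, 2 had one. The summits of the other promoter peaks had a median distance of 159 bp upstream of the start, so this window misses copies farther out. Centred 159 bp upstream, the window held the element at 103 gene starts (0.516%), atx-2 among them, and 31 of these had an optimal peak. Over all 19985 protein-coding genes, 356 (1.78%) had their TSS nearest within 2 kb of an optimal summit. The share of all sequence inside optimal peaks is not given here for the genome copies. Since the element was chosen on these peaks, the higher shares at its copies are no independent support.

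Peaks were also looked up at 5 lists of 88 genes, 87 of which were found in the annotation. One list holds partners of ATX-2, and the others hold genes of RNA granules and mRNA decay, germline and embryonic translational control, translation initiation and the TOR pathway. A gene was counted when its TSS was the nearest within 2 kb of an optimal summit, which was the case for 356 of all 19985 protein-coding genes (1.78%). Of the 87 listed genes 3 had such a peak. These were eif-3.C, a subunit of the translation initiation factor eIF3, with a signal of 112, ragc-1, a Rag GTPase of the TOR pathway, with 70.2, and eif-1.A, an initiation factor, with 45.6. All 3 had a peak in both replicates, with signals of 41.9 and 72.6 at eif-3.C, 33.2 and 37.2 at ragc-1, and 19.7 and 26.4 at eif-1.A. They belong to the 22 initiation factors (2 members) and the 12 TOR pathway genes (1 member).

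The lists of ATX-2 partners (9 genes), of RNA granules and mRNA decay (21) and of germline and embryonic translational control (25) held no gene with an optimal peak. Against the 1.78% of all protein-coding genes, lists of this size are too short for a count of 0 to show a lower share. Among the partners are gld-1 and mex-3, which act in germline translation, pab-1 and pab-2, which encode poly(A)-binding proteins, and szy-20, par-5 and zyg-1, which act in early embryonic division. The highest pooled signal among them was 33.3, at szy-20, where replicate 2 had a peak with a signal of 41.5. The replicate 1 list, whose lowest signal was 13.2, held none there, so this peak rests on replicate 2. In the pooled list with background 60 of the 87 genes (69.0%) had a peak, against 60.2% of all protein-coding genes.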

How the data were processed

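MED-1 ChIP-seq peak lists of 2 replicates, their pool and the optimal set of the irreproducible discovery rate (IDR) were used, on ce11 and ce10. Signal values are those the authors deposited, and the q-value column is a deposited score that falls below 0 in lists with background. The labels name sonication and a control experiment, which was not analysed here. For aligner, peak caller and IDR threshold, the tools and settings were not given in the sources used here. Peaks, summits and genes (Ensembl release 115) were joined on ce11, and no coordinates were converted. The ce10 peak was matched by its signal on the same chromosome. Overlap meant at least 1 bp. The scripts used Python 3.11.15, pandas 2.3.3 and numpy 2.4.6, and motif and distance functions were tested on simulated data. Named genes were atx-2, its neighbours within 5 kb, the promoter peak above and 3 below it, the 5 most alike peaks, and listed genes with an optimal peak. nmad-1, dvc-1 and the ATX-2 partners were named after their values were seen. The gene and the lists were chosen with earlier results of these data known. Alternatives were other builds, lists, windows, distances and single replicates.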

Additional observations from a re-analysis of the deposited data

How the results depend on the processing

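The nuclear rank of atx-2 lay between 2 and 3 with either replicate left out, was 2 in the pooled and ce10 lists, and was 1, tied with the other peaks at the top value, by the q-value column. The ratio of its signal to the promoter median fell to 3.94 within the 230 strongest optimal peaks, where the weaker peaks are left out by construction. With a q-value column of at least 2, the pooled peaks within 5 kb numbered 1. With 50 bp each side of the summit 2 of the motifs matched, the Sp1 site and the E-box. Counting genes whose body overlaps a peak left 1 listed gene, ragc-1. The share of other promoter peaks with the element was 37.0% with spacers of 3 to 5 bases and 26.6% to 27.7% with either replicate left out, alternatives chosen after the data were seen. The other 24 alternative values moved by less than the spread between replicates or, for counts, stayed within 1.5 times. No paired analysis was possible because the study has 1 group. Depth is unknown, and with 2 replicates of 1 strain the spread says nothing about other strains or an untagged control.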
